A study of Mus musculus with 15 samples.

Results

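The 3 metallothionein genes (Mt1, Mt2 and Mt3) and 7 targets of the antioxidant transcription factor NRF2 (Slc7a11, Gclc, Gclm, Srxn1, Txnrd1, Nqo1 and Hmox1) were followed in the striatum of male mice whose paternal line went back to a founder given methamphetamine (METH) or saline. They were taken by gene symbol from the deposited tables, where all 10 were present among 45777 features. METH is a psychostimulant that releases dopamine. The design asked whether striatal expression in sons (F1) and grandsons (F2) differed with the treatment of the founder.

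The animals were wild-type males of the ICR stock, sampled at 7 weeks. Their founders were 6-week-old ICR males injected under the skin on 21 consecutive days with METH at 5 mg/kg or with saline at 10 mL/kg, and then mated with females that had received no drug. F1 males descended directly from these founders, and F2 males came from F1 males and untreated females. There were 4 F1 saline, 3 F1 METH, 4 F2 saline and 4 F2 METH libraries, 15 in all, each from 1 numbered animal, and the lineage treatment is the founder's. The labels do not connect animals with litters or founders, so every p-value here compares a difference with the spread between these animals only, and animals of 1 sire would not be independent.

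Metallothioneins are small cysteine-rich proteins that bind zinc and copper and scavenge oxidants. Mt1 and Mt2 are induced by metals, through the zinc-sensing factor MTF1, and by glucocorticoids, and in brain they are strong in astrocytes, while Mt3 is the form typical of the nervous system. NRF2, encoded by Nfe2l2, is held and degraded by KEAP1 under resting conditions, and when oxidants or electrophiles modify KEAP1 it enters the nucleus, displaces the repressor BACH1 and switches on genes for glutathione and thioredoxin metabolism, heme breakdown and quinone reduction. In striatum these genes are of interest because released dopamine can oxidise to reactive quinones.

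The metallothionein genes lie together on chromosome 8 of build GRCm38.p6, the assembly of mm10, all on the plus strand: Mt3 at chr8:94152607-94154148, Mt2 at chr8:94172618-94173567 and Mt1 at chr8:94178883-94180327. The gap from Mt3 to Mt2 is 18469 bases and that from Mt2 to Mt1 is 5315 bases. The coding sequences of Mt1 and Mt2 are 79.6% identical, and Mt3 is 66.2% identical to Mt1 and 67.6% identical to Mt2. The longest run shared by any pair of their transcripts is 27 bases, so reads much longer than that would separate the 3 genes, but neither the read length nor the treatment of ambiguous reads is stated in the labels. The promoters of the 3 genes are shown because Mt1 and Mt2 varied together between animals, while no such relation was shown for Mt3. Whether the promoters bear on this was not tested. Each line gives the 250 bases before a transcript start in RefSeq, which need not be the outermost start of the gene, 5′ to 3′ on the plus strand, at chr8:94178839-94179088 for Mt1, chr8:94172368-94172617 for Mt2 and chr8:94152357-94152606 for Mt3. Capitals mark the core of the metal response element bound by MTF1 (TGCACNC or TGCGCNC, on either strand) and, once in Mt2, the core of the antioxidant response element bound by NRF2 (TGACNNNGC, on either strand).
Mt1: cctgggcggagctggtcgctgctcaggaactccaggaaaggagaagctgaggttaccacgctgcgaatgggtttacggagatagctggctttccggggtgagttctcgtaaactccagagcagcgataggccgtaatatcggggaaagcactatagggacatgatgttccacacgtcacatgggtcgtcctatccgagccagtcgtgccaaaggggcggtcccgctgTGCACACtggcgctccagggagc
Mt2: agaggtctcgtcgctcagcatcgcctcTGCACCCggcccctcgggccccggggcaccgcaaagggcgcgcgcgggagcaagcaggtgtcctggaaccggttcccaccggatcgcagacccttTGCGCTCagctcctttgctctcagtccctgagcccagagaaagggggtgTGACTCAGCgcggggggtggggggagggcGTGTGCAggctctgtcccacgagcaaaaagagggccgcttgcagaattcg
Mt3: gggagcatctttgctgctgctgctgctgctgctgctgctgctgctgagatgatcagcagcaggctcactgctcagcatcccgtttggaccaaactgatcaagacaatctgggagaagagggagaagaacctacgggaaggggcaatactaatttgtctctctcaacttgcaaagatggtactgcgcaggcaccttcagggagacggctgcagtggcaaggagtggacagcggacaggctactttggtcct

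Mt1 held 1 metal response core, whose first letter lies 23 bases before the start. The gene span of Mt1 begins at chr8:94178883, inside this window, so most of its 250 bases lie past the outermost start. The windows of Mt2 and Mt3 end just before their gene spans, so the counts do not compare like stretches of the 3 genes. Mt2 held 3 metal response cores, at 223, 128 and 50 bases, and 1 antioxidant core, TGACTCAGC, at 79 bases before the start. Mt3 held neither core in these 250 bases. With the 50 bases after the start included, Mt1 held 3 metal response cores, Mt2 held 4 and Mt3 held 1. Over the 250 bases before the start in all 32851 RefSeq windows, 21.4% held at least 1 metal response core, 5.17% held 2 or more and 10.2% held an antioxidant core. RefSeq promoter windows were found for 8 of the 10 genes, 10 windows in all because Txnrd1 has 3 starts. Hmox1 (chr8:75093618-75100593) and Gclc (chr9:77754535-77794489) had no entry. Among the NRF2 targets, Gclm (chr3:122245487-122267215) held 2 metal response cores and 1 antioxidant core, which overlapped 1 of the 2. Srxn1 (chr2:152105524-152111376) held 1 metal response core, and 1 of the 3 Txnrd1 windows (gene at chr10:82833951-82897724) held 1 antioxidant core. The windows of Nqo1 (chr8:107388225-107403205) and Slc7a11 (chr3:50364936-50499087) held neither. The Slc7a11 window and the Txnrd1 window with the core lie wholly inside the gene spans given, and the Gclm window lies partly inside. A match is a string of letters and not a measured binding site, and its absence says only that these letters are not in the window.

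Total counts per library ran from 31563806 to 50573906. The labels name the cells as neuronal, but the tissue is whole striatum: all 14 spiny projection neuron markers were detected, with summed levels of 6392 to 11421 CPM (counts scaled to a fixed library total), and so were all 15 astrocyte markers (4567 to 7132 CPM) and all 12 oligodendrocyte markers (7036 to 13652 CPM). In such bulk tissue fewer cells of a type and less RNA per cell cannot be told apart. Slc17a7, the vesicular glutamate transporter of cortical excitatory neurons, was above 100 CPM in 5 libraries: replicates 1 and 3 of F1 saline, 3 of F1 METH, 4 of F2 saline and 2 of F2 METH. Red cell markers summed to 844 CPM in F1 saline replicate 4 and to 56.8 to 193 CPM elsewhere. Heat shock genes were highest in F2 saline replicates 2 and 3, with mean log2 CPM of 6.56 and 6.43 against 5.51 to 6.13 in the other 13 libraries.

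The metallothioneins were by far the most abundant of the 10 transcripts. On the authors' TPM scale, which corrects for transcript length, the mean over all libraries was 392 for Mt3, 341 for Mt1 and 194 for Mt2. Srxn1 followed at 73.9, Txnrd1 at 46.8, Gclc at 42.1 and Gclm at 27.4 TPM, and Slc7a11 (6.25), Nqo1 (6.21) and Hmox1 (4.80) were lowest. The ranges of Txnrd1 (38.1 to 57.6 TPM) and Gclc (33.4 to 48.2 TPM) overlapped, as did those of Slc7a11, Nqo1 and Hmox1, so the order of those neighbours does not exceed the spread over libraries. Mt3 stood above Mt1 in 7 of 7 F1 libraries (ratio of TPM 1.08 to 1.99) but in 4 of 8 F2 libraries (0.629 to 1.11). Mt1 exceeded Mt2 in all 15 libraries, by 1.43 to 2.28 times. Mt4, the metallothionein of squamous epithelia, had 0 reads in every library, which allows up to 0.0593 to 0.0950 CPM, depending on the library, by a limit of 3 counts that covers counting error only.

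**Figure D1:**
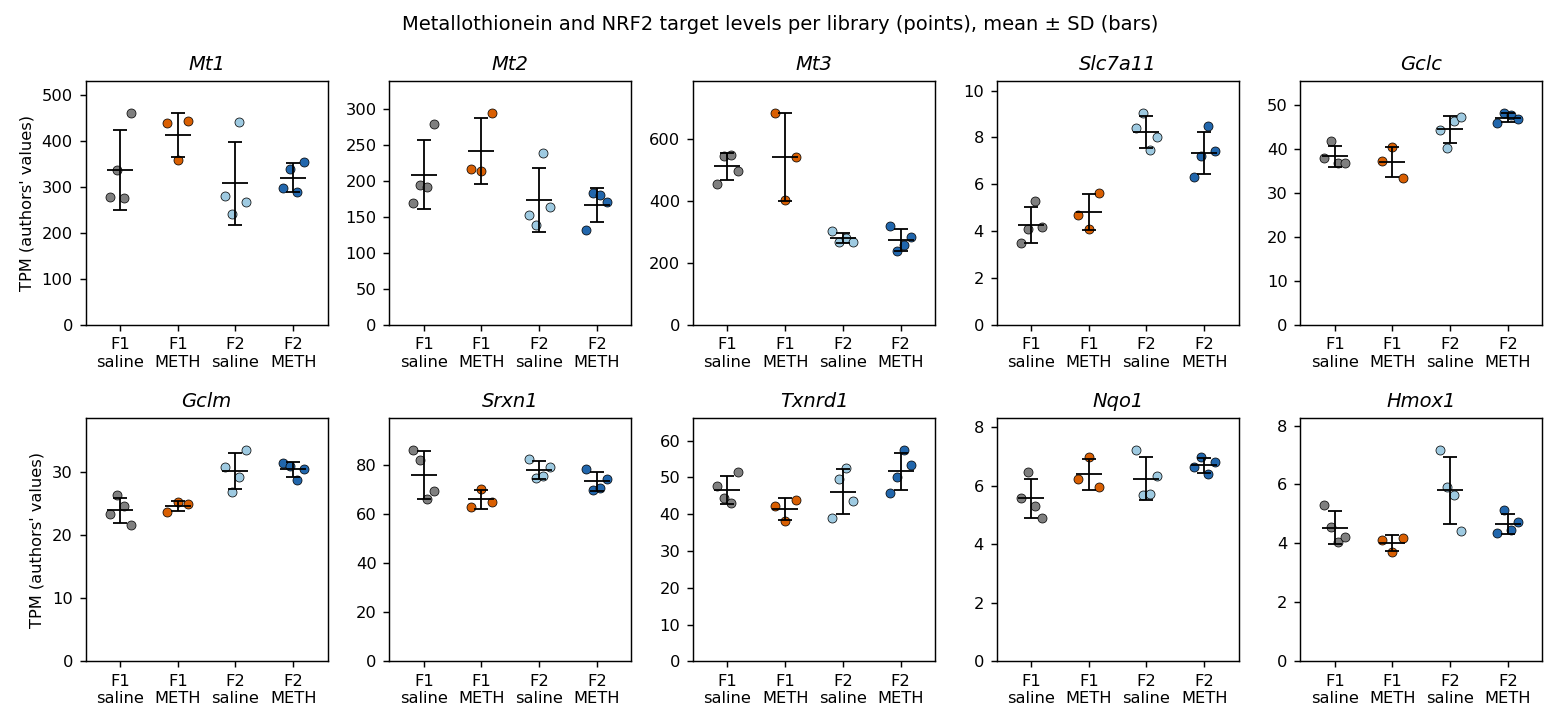
TPM of each of the 10 genes (y axis, starting at 0) in F1 saline, F1 METH, F2 saline and F2 METH libraries (x axis); points are single libraries, the long bar is the group mean and the whiskers are 1 SD. The METH and saline points overlap for every gene in both generations, and the F1 and F2 points do not overlap for Mt3, Slc7a11 and Gclm.

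On the TPM scale, levels of 3 genes separated the F1 libraries from the F2 libraries irrespective of lineage. Mt3 was at 402 to 684 TPM in F1 and 238 to 319 TPM in F2, a mean ratio of F2 to F1 of 0.528. Slc7a11 was at 3.47 to 5.63 TPM in F1 and 6.30 to 9.05 TPM in F2, a ratio of 1.73. Gclm was at 21.6 to 26.3 TPM in F1 and 26.8 to 33.5 TPM in F2, a ratio of 1.25. The other 7 genes had overlapping TPM ranges, with ratios from 0.762 for Mt2 to 1.22 for Hmox1. In CPM the ranges of Gclm overlapped too, at 18.5 to 22.0 CPM in F1 and 21.0 to 25.0 CPM in F2. Each generation was deposited as its own table, so generation and whatever differed between the tables cannot be told apart. These ratios were not tested. The share of all genes whose F1 and F2 ranges did not overlap is not given here. Whether such separation was more frequent among the genes followed than among all genes therefore cannot be said.

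Within each generation no difference between the lineages passed the test for any of the 10 genes. Counts were compared with edgeR's quasi-likelihood test over all genes, with Benjamini-Hochberg adjustment and a threshold of 0.05. In F1 it called 0 of the 10 genes, against 0% of 18499 genes tested, and 0 of 10 had an unadjusted p under 0.05, against 4.18%. In F2 it called 0 of 10, against 0% of 18093 genes, and again 0 of 10 had an unadjusted p under 0.05, against 4.77%. DESeq2 and limma-voom also called 0 of the 10 in both generations. The groups' CPM ranges did not overlap for 0 of the 10 genes in either generation, against 5.50% of genes in F1 and 2.54% in F2. In F1 the log2 difference (METH minus saline) was above 0 for 7 of 10 genes, against 49.1% of all genes, with a median of 0.13 against -0.0035 over all genes tested. In F2 it was above 0 for 4 of 10, against 49.5% of all genes, with a median of -0.018 against -0.0020.

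**Figure D2:**
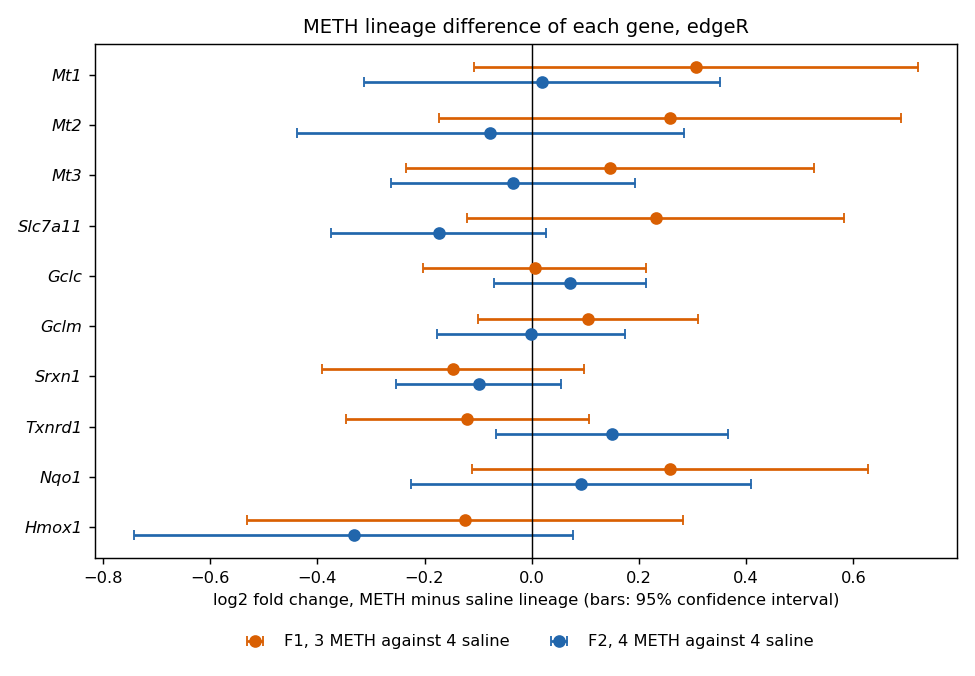
Log2 fold change of METH against saline lineage (x axis) for each gene (y axis), from edgeR, in F1 (3 against 4 libraries) and F2 (4 against 4 libraries); bars are 95% confidence intervals. All 20 intervals include 0, from the widest, those of Mt2 in F1 and Mt1 in F1, to the narrowest, that of Gclc in F2.

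Mt1 was measured with 1923 to 4813 reads per library. In F1 saline replicates 1 to 4 it was at 278, 337, 275 and 462 TPM, and in F1 METH replicates 1 to 3 at 440.2, 358 and 444 TPM. The 3 METH animals lay above saline replicates 1 to 3, but the highest of the 7 values belonged to saline replicate 4. METH minus saline on the log2 scale came to 0.31 (SE 0.18, 95% confidence interval -0.11 to 0.72), with an adjusted p of 0.994 by edgeR's quasi-likelihood test. In F2 saline replicates 1 to 4 Mt1 was at 281, 241, 443 and 267 TPM, and in F2 METH replicates 1 to 4 at 299, 339, 289 and 354 TPM. Here the METH values were close together and lay between 1 high saline animal, replicate 3, and the other 3. On the log2 scale METH minus saline was 0.020 (SE 0.15, interval -0.31 to 0.35).

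Mt2 was present at lower levels. In F1 it was at 169, 194, 192 and 278 TPM in saline replicates 1 to 4 and at 216, 214 and 294 TPM in METH replicates 1 to 3. Saline replicate 4 again stood above the other saline animals and above METH replicates 1 and 2, while METH replicate 3 was highest of all. F2 saline replicates 1 to 4 had 153, 138, 238 and 163 TPM and F2 METH replicates 1 to 4 had 131, 183, 181 and 170.2 TPM, with saline replicate 3 again highest and METH replicate 1 below every saline animal. The log2 difference was 0.26 in F1 (SE 0.19, interval -0.17 to 0.69) and -0.077 in F2 (SE 0.16, interval -0.44 to 0.28). An antisense transcript, Gm45774, overlaps Mt2 in the GENCODE annotation, and whether strand was used in counting is not stated in the labels.

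The size of the Mt1 and Mt2 differences depended on single libraries. Without F1 saline replicate 4, the library with the high red cell markers, they were 0.50 and 0.45 in F1, with adjusted p of 0.675 and 0.721 by edgeR. Without the 3 F1 libraries with high Slc17a7, they were 0.024 and -0.093. That fit kept only saline replicates 2 and 4 and METH replicates 1 and 2. Saline replicate 4 is the animal with high Mt1 and Mt2, and saline replicate 2, with Slc17a7 at 98.0 CPM, was just under the threshold. Without F2 saline replicate 3 the Mt1 and Mt2 differences were 0.22 and 0.13 in F2. The adjusted p of the 2 genes was at least 0.281 over all F1 alternatives and at least 0.863 over all F2 alternatives. Markers of several cell types were mostly higher in F1 METH animals, where 49.1% of all genes tested were higher. Of 15 astrocyte markers 12 were higher in METH animals (median log2 difference 0.18; summed level 4567 to 5033 CPM in saline and 5053 to 7132 CPM in METH). Of 12 endothelial markers 10 were higher (median 0.16; 409 to 474 CPM in saline and 498 to 563 CPM in METH). Higher too were 13 of 13 pericyte, smooth muscle and fibroblast markers (median 0.30; 209 to 240.0 CPM in saline against 269.7 to 277 CPM in METH), 12 of 12 oligodendrocyte markers (0.28), 13 of 15 microglia and macrophage markers (0.19) and 12 of 14 spiny projection neuron markers (0.12), against 3 of 12 cortical excitatory neuron markers (-0.26) and 0 of 5 red cell markers (-1.15). By edgeR, 2 of the astrocyte and 6 of the endothelial markers had an unadjusted p under 0.05, against 4.18% of all genes. So had 3 of the pericyte, smooth muscle and fibroblast markers, 4 of the oligodendrocyte markers and 1 of the microglia and macrophage markers. For spiny projection neuron, cortical excitatory neuron and red cell markers the number was 0. In all these lists 0 passed after adjustment, and their part in the Mt1 and Mt2 values was not tested.

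Mt3 gave another arrangement than its neighbours. In F1 it was at 455, 544, 547 and 497 TPM in saline replicates 1 to 4 and at 684, 402 and 539.5 TPM in METH replicates 1 to 3, so that the METH group held both the highest and the lowest value. F2 saline replicates 1 to 4 had 302, 268, 278 and 267 TPM and F2 METH replicates 1 to 4 had 319, 238, 257 and 283 TPM, with the same arrangement. METH minus saline on the log2 scale came to 0.15 in F1 (SE 0.17, interval -0.24 to 0.53) and -0.035 in F2 (SE 0.10, interval -0.26 to 0.19). Without F1 METH replicate 1, the animal with the highest level, the F1 value was -0.084, and without F1 METH replicate 2 it was 0.33.

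**Figure D3:**
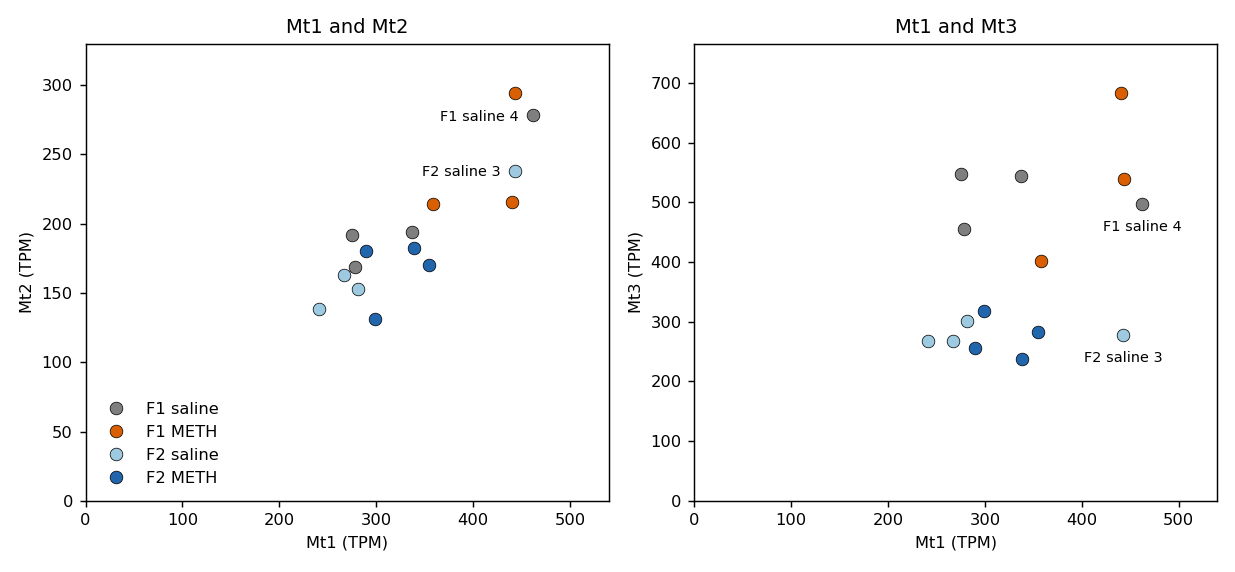
TPM of Mt2 (left, y axis) and Mt3 (right, y axis) against TPM of Mt1 (x axis) in each of the 15 libraries, coloured by group, with all axes starting at 0. Mt1 and Mt2 rise together across the groups. F1 saline replicate 4, F2 saline replicate 3 and F1 METH replicates 1 and 3 have the highest Mt1, and F1 METH replicate 3 has the highest Mt2. Mt3 separates F1 from F2 and shows no such rise.

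Mt1 and Mt2 were the most closely tied pair of the 10 genes. After subtraction of each group's mean, their log2 CPM correlated over the 15 libraries with Pearson's r = 0.90 (permutation p within groups 0.00112, adjusted 0.0101 over the 9 relations computed) and Spearman's rho = 0.80 (permutation p 0.00245, adjusted 0.0220). Without the 2 libraries farthest from the median of Mt1, F2 saline replicate 3 and F1 saline replicate 4, r was 0.70. Within F1 alone r was 0.89 (7 libraries) and within F2 alone 0.90 (8 libraries). Mt3 gave r = 0.30 with Mt1 (permutation p 0.199, adjusted 0.359; rho = 0.41, permutation p 0.142) and r = -0.041 with Mt2 (permutation p 0.888, adjusted 0.888; rho = -0.039, permutation p 0.899). Without the same 2 libraries those values were 0.48 and -0.12.

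The mean log2 CPM of 18 tested glucocorticoid target genes correlated with Mt1 at r = 0.52 (permutation p 0.187, adjusted 0.359; rho = 0.35, permutation p 0.286) and with Mt2 at r = 0.56 (permutation p 0.119, adjusted 0.357; rho = 0.53, permutation p 0.0776). Neither relation passed after adjustment, and without F1 saline replicate 3 and F2 saline replicate 3 r was 0.21 and 0.39. Within F2 the values were 0.79 and 0.85 (8 libraries), and within F1 0.29 and 0.29 (7 libraries). F2 saline replicate 3 had the highest mean of these genes among the F2 libraries, 5.06 against 4.49 to 4.74 in the other 7, as well as the highest Mt1 and Mt2.

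Slc7a11 encodes the cystine-importing subunit of system xc-, which supplies cysteine for glutathione and in brain works chiefly in astrocytes. In F1 it was at 3.47, 4.09, 5.28 and 4.18 TPM in saline replicates 1 to 4 and at 4.69, 4.10 and 5.63 TPM in METH replicates 1 to 3, with overlapping groups. The F2 levels were 8.39, 9.05, 7.46 and 8.01 TPM in saline and 6.30, 7.20, 8.47 and 7.42 TPM in METH replicates 1 to 4. In F2 3 of the 4 METH animals lay below every saline animal, and METH replicate 3 lay above 3 of them. On the log2 scale METH minus saline was 0.23 in F1 (SE 0.15, interval -0.12 to 0.58) and -0.17 in F2 (SE 0.091, interval -0.37 to 0.027), the latter with an unadjusted p of 0.0826 and an adjusted p of 0.960 by edgeR's quasi-likelihood test. The F1 value was 0.12 without F1 METH replicate 3 and 0.14 without F1 saline replicate 1. Its partner Slc3a2, the heavy chain that carries the transporter to the membrane, gave 0.011 in F1 and -0.062 in F2 and exceeded it by a median of 16.8 times in F1 and 9.94 times in F2 on the TPM scale.

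Gclc and Gclm encode the catalytic and modifier subunits of glutamate-cysteine ligase, the rate-limiting enzyme of glutathione synthesis. In F1 Gclc was at 38.0, 41.8, 36.8 and 36.7 TPM in saline replicates 1 to 4 and at 37.3, 40.4 and 33.4 TPM in METH replicates 1 to 3. In the F2 generation it reached 44.3, 40.1, 46.3 and 47.1 TPM in saline and 45.8, 48.2, 47.8 and 46.7 TPM in METH replicates 1 to 4. In F1 METH replicate 3 lay below the saline range and the other 2 METH animals inside it, and in F2 the METH animals sat at its upper edge. The log2 difference was 0.0052 in F1 (SE 0.092, interval -0.20 to 0.21) and 0.072 in F2 (SE 0.064, interval -0.070 to 0.21). Its intervals were among the narrowest of the 10 genes, with an upper bound of 1.16-fold in each generation.

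Gclm was at 23.3, 26.3, 24.6 and 21.6 TPM in F1 saline replicates 1 to 4 and at 23.7, 25.3 and 24.9 TPM in F1 METH replicates 1 to 3. The F2 levels were 30.9, 26.8, 29.1 and 33.5 TPM in saline and 31.4, 30.9, 28.7 and 30.5 TPM in METH replicates 1 to 4. In both generations the METH values fell inside the saline range on the TPM scale. In CPM the highest METH animal lay slightly above the highest saline animal, at 22.0 against 21.7 CPM in F1 and 25.0 against 24.6 CPM in F2. METH minus saline on the log2 scale came to 0.10 in F1 (SE 0.091, interval -0.10 to 0.31) and -0.0011 in F2 (SE 0.079, interval -0.18 to 0.17). The TPM of Gclc exceeded that of Gclm 1.34 to 1.70 times in every library. Their deviations correlated at r = 0.53 (permutation p 0.0373, adjusted 0.168; rho = 0.51, permutation p 0.0634, adjusted 0.233), and at 0.45 without F1 METH replicate 3 and F2 saline replicate 2.

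Srxn1 encodes sulfiredoxin, which reactivates over-oxidised peroxiredoxins. F1 animals had 86.4, 82.0, 66.2 and 69.4 TPM in saline replicates 1 to 4 and 62.9, 70.2 and 65.2 TPM in METH replicates 1 to 3. F2 animals had 82.7, 74.6, 75.8 and 79.3 TPM in saline and 78.3, 70.1, 70.8 and 74.5 TPM in METH replicates 1 to 4. On the TPM scale the METH group held the lowest animals in both generations, and the groups overlapped in both. In CPM the lowest F1 animal was saline replicate 3, at 73.6 CPM against 76.3 to 83.1 CPM in the METH animals. On the log2 scale METH minus saline was -0.15 in F1 (SE 0.11, interval -0.39 to 0.097) and -0.099 in F2 (SE 0.070, interval -0.25 to 0.055). It stayed below 0 in F1 and F2 under all alternatives run, with an adjusted p of at least 0.618.

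Txnrd1 encodes cytosolic thioredoxin reductase, the selenoenzyme that keeps thioredoxin reduced. In F1 it was at 47.7, 44.4, 43.0 and 51.5 TPM in saline replicates 1 to 4 and at 42.3, 38.1 and 43.8 TPM in METH replicates 1 to 3, so the METH animals were mostly below the saline animals. In F2 it was at 38.9, 49.5, 52.5 and 43.5 TPM in saline and at 45.7, 50.1, 57.6 and 53.3 TPM in METH replicates 1 to 4, with 2 METH animals above every saline animal. These positions were less marked in CPM. In F1 the METH animals were at 63.2, 54.9 and 62.2 CPM against 58.1 to 74.4 CPM in saline. In F2 only METH replicate 3, at 70.8 CPM, exceeded the saline maximum of 68.6 CPM. The log2 difference was -0.12 in F1 (SE 0.10, interval -0.35 to 0.11) and 0.15 in F2 (SE 0.098, interval -0.067 to 0.37). Without F2 saline replicates 2 and 3, the animals with high heat shock genes, the F2 value was 0.33. Single libraries also moved both values: that of F1 was -0.052 without F1 saline replicate 4 and -0.059 without F1 METH replicate 2, and that of F2 was 0.085 without F2 saline replicate 1 and 0.22 without F2 saline replicate 3. Eid3 lies within Txnrd1 on the same strand, and reads of the pair may be shared.

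Nqo1 encodes the quinone reductase that detoxifies dopamine quinones among others. Its 113 to 192 reads per library give a counting error of 8.39%, close to the 9.80% spread observed within groups. F1 animals had 5.59, 6.47, 5.30 and 4.89 TPM in saline replicates 1 to 4 and 6.23, 6.97 and 5.96 TPM in METH replicates 1 to 3. F2 animals had 7.23, 5.67, 5.72 and 6.32 TPM in saline and 6.63, 6.96, 6.38 and 6.79 TPM in METH replicates 1 to 4. METH animals lay in the upper part of the F1 range and in the middle of the F2 range. METH minus saline on the log2 scale came to 0.26 in F1 (SE 0.16, interval -0.11 to 0.63) and 0.092 in F2 (SE 0.14, interval -0.23 to 0.41).

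Hmox1 encodes heme oxygenase-1, which degrades heme and is repressed by BACH1. It had the lowest mean TPM of the 10 genes, with 80 to 172 reads per library and a counting error of 9.44%. In F1 it was at 5.30, 4.56, 4.05 and 4.22 TPM in saline replicates 1 to 4 and at 4.11, 3.70 and 4.20 TPM in METH replicates 1 to 3, with overlapping groups. The F2 levels were 7.19, 5.93, 5.66 and 4.43 TPM in saline and 4.35, 5.12, 4.45 and 4.73 TPM in METH replicates 1 to 4. In F2 3 saline animals lay above every METH animal, and saline replicate 4 lay among the METH animals on the TPM scale. In CPM saline replicate 4 lay below every METH animal, at 2.51 CPM against 2.53 to 3.05 CPM. On the log2 scale METH minus saline was -0.12 in F1 (SE 0.18, interval -0.53 to 0.28) and -0.33 in F2 (SE 0.19, interval -0.74 to 0.078), with an unadjusted p of 0.102 and an adjusted p of 0.960 in F2 by edgeR's quasi-likelihood test.

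The F2 difference of Hmox1 was the largest in size among the 20 values of the 10 genes. It was -0.20 without F2 saline replicate 1 and -0.46 without F2 saline replicate 4, with an adjusted p of at least 0.509 over all alternatives. Without the 2 F2 libraries with high Slc17a7 it was -0.51. It was -0.33 without the 2 libraries with high heat shock genes. In F2 12 of 12 heat shock genes were lower in METH animals (median log2 difference -0.34; mean log2 CPM 5.56 to 6.56 in saline and 5.56 to 5.88 in METH), where 49.5% of all genes were higher. By edgeR 5 of the 12 had an unadjusted p under 0.05, against 4.77% of all genes, and 0 passed after adjustment. The same direction was seen in F1, with 11 of 12 lower (median -0.15), where 49.1% of all genes were higher. There 4 had an unadjusted p under 0.05, against 4.18% of all genes, and 0 passed. Over the 15 libraries the heat shock mean correlated with Hmox1 at r = 0.50 (permutation p 0.328, adjusted 0.422; rho = 0.24, permutation p 0.471), and at 0.0094 without F2 saline replicates 2 and 4. Of 14 tested microglia and macrophage markers 11 were lower in F2 METH animals (median -0.18; summed level of 362 to 551 CPM in saline and 383 to 437 CPM in METH). The part of these markers in the Hmox1 value was not tested.

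The METH difference itself was compared between generations by the interaction of lineage and generation over all 15 libraries. By edgeR it called 0 of the 10 genes, against 0.00518% of 19308 genes tested, and 1 of 10 had an unadjusted p under 0.05, against 4.88%. That gene was Slc7a11, for which the F2 effect minus the F1 effect was -0.41 on the log2 scale (SE 0.18, interval -0.79 to -0.035, unadjusted p 0.0344, adjusted p 0.976). Its effect was below the F1 effect under all 26 alternatives, with values from -0.52 to -0.29 and adjusted p of at least 0.630. Txnrd1 differed in the opposite direction, by 0.26 (SE 0.15, unadjusted p 0.0977). The other 8 genes had values from -0.35 for Mt2 to 0.057 for Gclc, and all their intervals include 0.

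**Figure D4:**
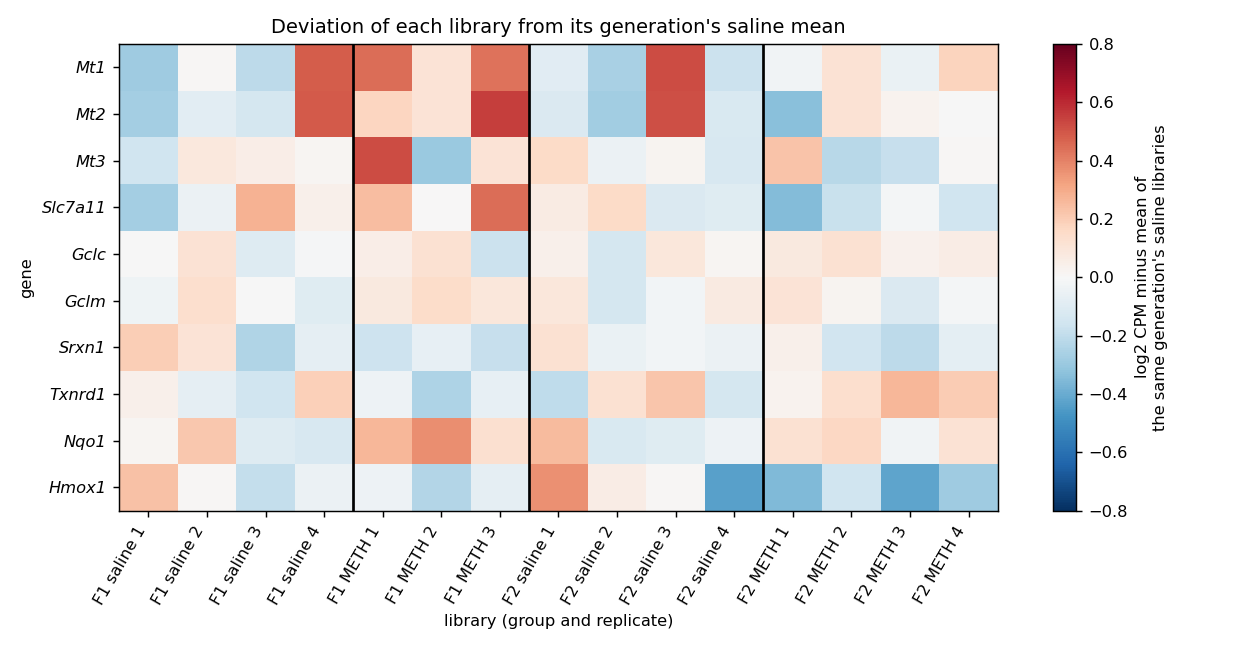
Deviation of each library (columns) from the mean of its generation's saline libraries, in log2 CPM, for each gene (rows); red is higher, blue is lower, and black lines separate the groups. The deep red cells of Mt1 and Mt2 occur in F1 saline replicate 4 and F2 saline replicate 3 as well as in F1 METH replicates, and Hmox1 is blue in F2 METH libraries and in F2 saline replicate 4.

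The 10 genes did not vary as 1 group. Of the 45 pairs, 26 had a correlation above 0 in their within-group deviations over the 15 libraries, with a median of 0.038, and 7 exceeded 0.5. The highest after Mt1 with Mt2 were Nqo1 with Gclm (r = 0.75), Nqo1 with Srxn1 (0.67) and Nqo1 with Gclc (0.66). Txnrd1 went with Mt1 (0.63) and Mt2 (0.63) but ran opposite to Gclm (-0.76) and Nqo1 (-0.62). Slc7a11 ran opposite to Srxn1 (-0.76) and Gclc (-0.69). These values share libraries, depth and dissection, and are given as a description. The matching shares over all gene pairs are not given here, and correlations of this size were common. Among 11269 genes ranked by r with Gclc, Gclm (0.53) was at place 1010. Among 11270 ranked by r with Nqo1, Gclm was at place 30 and Gclc at place 137. For Mt1, Mt2 was at place 1 and Txnrd1 at place 198. The spread between animals of a group, counting error included, was largest for Mt2 (coefficient of variation 22.0%, counting error 2.49%), Mt1 (20.1%) and Mt3 (19.3%), and smallest for Gclm (6.34%, counting error 3.49%) and Gclc (6.49%, counting error 2.17%).

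The likeness of other genes to each of the 10 was measured as Pearson's r of within-group deviations in log2 CPM over the 15 libraries, among 11269 or 11270 tested genes with a mean of at least 5 CPM. Mt1 came closest to Mt2 (r = 0.90), Fars2 (0.86), a mitochondrial phenylalanine-tRNA synthetase, and Bhlhe41 (0.85), a circadian repressor. Mt2 was followed, after Mt1, by Tmem129 (0.84) and Ppp2r5b (0.83). Mt3 was followed by Zfp30 (0.83), Ccnq (0.81) and B2m (0.81), the light chain of class I histocompatibility molecules. Hmox1 was followed by Snx9 (0.83), Tmem63a (0.81) and Itih5 (0.79), and Slc7a11 by Rptor (0.93), the mTORC1 scaffold, Caskin2 (0.88) and Tcirg1 (0.88). The single closest gene was Glo1 for Nqo1 (0.85), Psma4 for Gclc (0.93), Prpf19 for Gclm (0.84), Ivns1abp for Srxn1 (0.91) and Tmem198 for Txnrd1 (0.95). All these genes were picked as the highest of 11269 or 11270 values over 15 libraries, and such a selection yields high r by itself. Apart from Mt1 with Mt2, none of these relations was tested.

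The regulators of these genes were measured in the same fits. Nfe2l2, which encodes NRF2, averaged 11.5 ± 0.962 CPM in F1 saline (mean ± SD, n = 4) and 14.7 ± 2.47 CPM in F1 METH (n = 3), a log2 difference of 0.35 (SE 0.14, unadjusted p 0.0358, adjusted p 0.994 by edgeR), with overlapping groups. F2 saline animals averaged 14.3 ± 3.12 CPM and F2 METH animals 13.0 ± 1.21 CPM (n = 4 each), a difference of -0.14 (SE 0.15). Keap1, the cytoplasmic anchor of NRF2, gave -0.045 in F1 and 0.086 in F2, Bach1 gave 0.22 and -0.044, and Mtf1, the metal-sensing activator of metallothioneins, gave 0.074 and -0.0059. Of 13 tested pathway regulators 7 were higher and 6 lower in F1 METH animals (median 0.011), and 4 were higher and 9 lower in F2 (median -0.035). In each generation 0 of 13 passed and 1 had an unadjusted p under 0.05, Nfe2l2 in F1 and Dpp3 (0.16, unadjusted p 0.0475), a KEAP1-binding peptidase, in F2. The next smallest p-values in F1 were those of Bach1, Btrc (-0.11), part of a ubiquitin ligase that degrades NRF2, and Sqstm1 (-0.14), the KEAP1-binding autophagy receptor. After Dpp3 the smallest in F2 were those of Sqstm1 (-0.11), Keap1 and Cul3 (-0.10), the scaffold of the KEAP1 ubiquitin ligase. Over all genes tested, 4.18% had an unadjusted p under 0.05 in F1 and 4.77% in F2.

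A wider list of 34 further NRF2 target genes likewise held none that passed. In F1 METH animals 23 were higher and 11 lower (median 0.059), where 49.1% of all genes tested were higher. Of the 34, 3 had an unadjusted p under 0.05, all higher, against 4.18% of all genes, and 0 passed. These were Ephx1 (0.51, unadjusted p 0.00104), microsomal epoxide hydrolase, Cat (0.21, 0.0220), catalase, and Gstm1 (0.26, 0.0327), a glutathione transferase, followed by the glutathione-conjugate exporter Abcc1 (0.17, 0.0568). In F2 METH animals 5 were higher and 29 lower (median -0.080), where 49.5% of all genes were higher. Of the 34, 1 had an unadjusted p under 0.05, against 4.77% of all genes, and 0 passed. That gene was Ftl1, the ferritin light chain, whose saline mean was 204 ± 11.7 CPM and METH mean 173 ± 7.38 CPM (-0.23, SE 0.061, unadjusted p 0.00282, adjusted p 0.960 by edgeR). Gstm5 (-0.22), Mgst1 (-0.38) and Gstp1 (-0.28), 3 further glutathione transferases, came next. In F2 14 of 15 astrocyte markers and 11 of 12 oligodendrocyte markers were also lower in METH animals (median -0.17 and -0.14), and in F1 12 of 15 and 12 of 12 were higher (0.18 and 0.28). Their part in these counts was not tested.

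Metal handling genes other than Mt1, Mt2 and Mt3, most of them zinc transporters, were divided evenly. Of 25 tested, 13 were higher and 12 lower in METH animals in both F1 (median 0.0059) and F2 (median 0.013), 0 passed in either and 1 in each had an unadjusted p under 0.05, against 4.18% of all genes in F1 and 4.77% in F2. In F1 that gene was the zinc and manganese importer Slc39a14 (-0.18, unadjusted p 0.0383), followed by Slc39a8 (0.47), Slc39a6 (-0.36) and Slc39a12 (0.33). In F2 it was Slc39a8 (-0.34, unadjusted p 0.0220), followed by Slc30a10 (0.29), a manganese exporter, Slc30a4 (-0.18) and Slc39a12 (-0.20). Slc39a8, a zinc and manganese importer, ranged from 2.51 to 4.26 CPM in F1 saline animals, against 4.27 to 4.77 CPM with METH, and from 4.52 to 5.31 CPM in F2 saline animals, against 3.67 to 4.08 CPM with METH. Its METH animals lay just above every saline animal in F1 and below every saline animal in F2. Over all genes tested, CPM ranges did not overlap for 5.50% in F1 and 2.54% in F2, and Slc39a8 was named for its small p. Its difference between generations was -0.82 (SE 0.23, unadjusted p 0.00239, adjusted p 0.854 by edgeR).

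**Figure D5:**
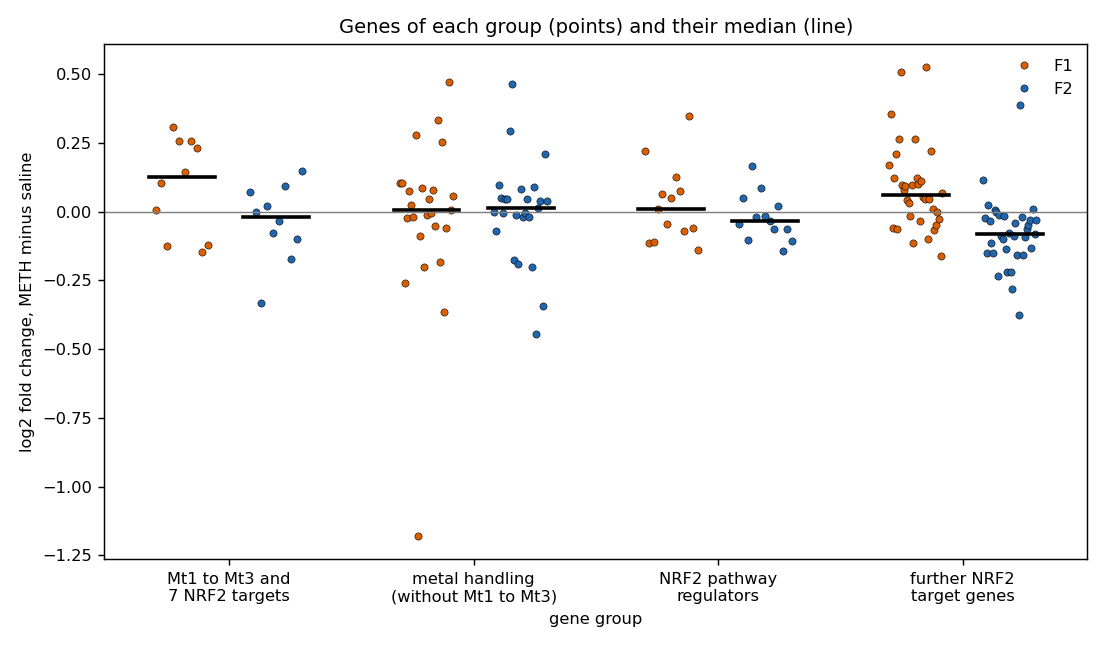
Log2 fold change of METH against saline lineage (y axis) for every tested gene (points) of 4 gene groups (x axis) in F1 and F2; the thick line is the median. The medians lie between -0.080 and 0.13, and the further NRF2 targets sit mostly above 0 in F1 and mostly below 0 in F2.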

How the data were processed

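RNA of 15 striatal libraries was measured as RNA-seq counts. The submitters' processing notes name build mm10, StringTie 2.1.3b, HISAT2 2.1.0, Trimmomatic and bcl2fastq 2.20.0; how they were combined, with which parameters, strand setting and counting, is not given in the sources used here. For each generation the authors deposited 1 table of whole-number counts, FPKM and TPM per gene, per the file headers. FPKM was not used. All 45 value columns were assigned to libraries from their names, and groups came from titles.

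The counts were fitted with edgeR 4.0.16 (glmQLFit, glmQLFTest, TMM, filterByExpr set to at least 10 counts, Benjamini-Hochberg over all genes, threshold 0.05) in R 4.3.3, each generation on its own table, and the interaction of lineage and generation over all 15 libraries. All 10 genes passed the filter in each fit. CPM used TMM-scaled totals. Correlations used log2 CPM (prior count 2) after removal of group means, with 100000 permutations within groups. TPM is the authors' value and entered no main test. Where single animals are ranked by TPM, their order in CPM can differ.

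The genes and lists were chosen with earlier results of these data known. Of 239 list entries, 239 had a symbol in the tables. Named were the 10 genes, Nfe2l2, Keap1, Bach1, Mtf1, Slc3a2, per list and generation the 4 genes with the smallest p where fewer than 4 passed, and the genes most like each member above a mean of 5 CPM, without predicted genes and pseudogenes. Promoters are from RefSeq, coding sequences from GENCODE. Alternatives were DESeq2 1.42.0, limma 3.58.1 (voom, or trend on log2 of TPM + 1 or TPM + 0.1), DESeq2 size factors, no filter, a filter at mean CPM 1, 1 fit of all libraries, a replicate block, and leaving out single libraries, those with Slc17a7 above 100 CPM or F2 saline replicates 2 and 3. Of 21 replicate pairs none matched within sampling noise (chi-square per degree of freedom 15.0 to 60.4). The steps were tested on simulated data. Figures used Python 3.11.15 and matplotlib 3.10.9.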

Additional observations from a re-analysis of the deposited data

Results flagged for a closer look

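Mt2 in F2 saline replicate 3 stood apart from its group at 50.7 CPM, with the nearest of the other 3 saline animals at 32.7 CPM and the lowest at 29.2 CPM. Its gap to the nearest animal was 0.834 of the group's range. It was the only 1 of 30 sets of gene and group examined to do so, and chance marks about 1 in 20.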

How the results depend on the processing

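Across the 30 values of the 10 genes (F1, F2 and their difference), 606 of 640 alternative values kept the direction, 34 did not, and 0 had an adjusted p under 0.05; 19 of the 30 never turned. The cause of the following changes was not tested. Gclc in F1 turned to -0.051 and -0.052 on log2 of TPM + 1 and TPM + 0.1. Gclm in F2 turned to 0.0026 with limma-voom, 6.24e-04 with a mean CPM of at least 1, 0.017 and 0.018 on the TPM scales and 0.015 without high Slc17a7. Without high Slc17a7 Mt2 in F1 was -0.093 and Mt1 in F2 was -0.064. Without F2 saline replicates 2 and 3, Mt2 in F2 was 0.076 and Nqo1 in F2 was -0.018.

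With 1 library left out, the values that turned ran from -0.055 to 0.084 for Gclc and -0.084 to 0.33 for Mt3 in F1, and in F2 from -0.067 to 0.22 for Mt1, -0.17 to 0.13 for Mt2, -0.13 to 0.024 for Mt3 and -0.046 to 0.036 for Gclm. For the difference they ran from -0.029 to 0.11 for Srxn1, -0.36 to 0.037 for Mt3 and -0.023 to 0.13 for Gclc.

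Over all genes, calls in F1 were 0, against 7 with DESeq2 (with or without its filtering), 3 with limma-voom, 1 on each TPM scale, without high Slc17a7 and in the fit of all libraries, and 0 to 2 with 1 library left out. In F2 they were 0, against 9, 1 with limma-voom, 1 without high Slc17a7, 4 without F2 saline replicates 2 and 3, and 0 to 1. For the difference 1 gene, Aox4, was called, against 4 with DESeq2 and 0 with limma-voom, a mean CPM of at least 1, both TPM scales, the replicate block, and without high Slc17a7 or F2 saline replicates 2 and 3; leaving out 1 library gave 0 to 2. On the TPM scale (pseudocount 1) 6776 genes were higher and 11723 lower in F1, against 9090 and 9409.

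Replicate numbers did not pair the samples: same-numbered libraries correlated at -0.035, 0.059 and 0.40 in F1 and at 0.039, -0.062, -0.057 and -0.0043 in F2, and 1 of 7 METH libraries correlated best with its own number. The replicate block called 0 genes in either generation and 0 for the difference. With it Gclc in F1 was -0.0011, and Mt1 and Mt2 in F1 were 0.49 and 0.44 (adjusted p 0.294 and 0.281, edgeR).

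Low counts limit Hmox1 and Nqo1, and 3 or 4 animals a group limit the rest. The number of promoter windows with a core was 5 (metal) and 4 (antioxidant) of 10 with the first 50 transcribed bases included, against 4 and 3 without them. Over all RefSeq windows the shares were 25.7% and 12.4% with these bases, against 21.4% and 10.2%. Txnrd1 supplied 3 of the 10 windows, and Hmox1 and Gclc had none.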
